A study of Homo sapiens with 13 samples.

Results

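The genes described here are 9 genes of deoxynucleotide supply that are tied to DNA synthesis: RRM1, RRM2, RRM2B, TYMS, TK1, DUT, DTYMK, DCK and SAMHD1. They were chosen by symbol, and each has 1 row among the 26454 genes of the deposited expression table. RNA was measured in U2OS cells, an established human osteosarcoma line, as RNA that came down with eIF4G in an immunoprecipitation (IP) and as total RNA depleted of ribosomal RNA. eIF4G is a scaffold on which capped mRNAs are joined to the ribosome when translation starts. The cells received an siRNA targeting CDK12, which phosphorylates RNA polymerase II, together with a mock treatment, or a control siRNA together with rapamycin, which inhibits mTORC1, a kinase complex that controls growth, or a control siRNA together with the mock treatment. The siRNAs were present for 48 h in all groups, and rapamycin was given at 50 ng/ml for 24 h. The IP gave 2 libraries of CDK12 siRNA cells, 2 of rapamycin cells and 3 of control cells, and total RNA gave 2 libraries of each. All 13 libraries come from 1 cell line, and an IP with a control antibody was not analysed here.

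Cells make deoxynucleotides by reducing ribonucleotides, a step carried out by ribonucleotide reductase, which pairs a large subunit with a small subunit. Thymidylate needs further steps of its own, either from deoxyuridylate or by salvage of thymidine. Many of these enzymes are made in S phase under the control of E2F transcription factors, while RRM2B is known as a target of p53 that serves cells outside S phase and cells with DNA damage.

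Promoter sequences are shown because E2F sites and CCAAT boxes, bound by the factor NF-Y, are among the elements known for periodic expression of such genes. RefSeq's promoters (build GRCh38.p14) matched 8 of the 9 genes, all but RRM2B, and the 250 bases before the start of transcription were searched on both strands. The E2F spellings searched were TTTCCCGC, TTTCGCGC, TTTGCCGC and TTTGGCGC, and at least 1 of them stood in 2.79% of all 35116 promoters of the table. The CCAAT box was searched as CCAAT and stood in 32.0% of them, with 9.53% holding at least 2. Sequences run 5′ to 3′ on the gene's own strand, and capitals mark matches to E2F spellings or CCAAT. A match is a stretch of letters and not a measured binding site. At least 2 E2F matches stood in 0.122% of all promoters. For a gene with several starts, the start shown is the one with the most marked matches. The shares are per promoter and make no allowance for that choice. Other elements, the CHR element and the Sp1 GC box, were searched as well and are not reported here.
RRM2, chr2:10122489-10122738, plus strand: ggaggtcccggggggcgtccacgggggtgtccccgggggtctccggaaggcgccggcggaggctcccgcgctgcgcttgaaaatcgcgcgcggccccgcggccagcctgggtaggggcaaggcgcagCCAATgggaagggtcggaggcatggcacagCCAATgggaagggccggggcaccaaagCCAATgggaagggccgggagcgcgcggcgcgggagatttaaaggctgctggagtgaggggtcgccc
RRM1, chr11:4094435-4094684, plus strand: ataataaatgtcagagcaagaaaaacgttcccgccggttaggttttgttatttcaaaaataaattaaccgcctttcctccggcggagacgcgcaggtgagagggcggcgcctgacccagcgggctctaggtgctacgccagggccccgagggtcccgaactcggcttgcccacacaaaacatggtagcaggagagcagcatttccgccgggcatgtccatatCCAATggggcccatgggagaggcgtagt
TYMS, chr18:657403-657652, plus strand: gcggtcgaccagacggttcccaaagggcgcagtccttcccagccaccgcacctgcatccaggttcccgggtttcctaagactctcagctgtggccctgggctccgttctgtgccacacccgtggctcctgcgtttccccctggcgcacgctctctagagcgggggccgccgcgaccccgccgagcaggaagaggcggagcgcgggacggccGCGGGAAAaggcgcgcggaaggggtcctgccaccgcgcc
TK1, chr17:78187053-78187302, minus strand: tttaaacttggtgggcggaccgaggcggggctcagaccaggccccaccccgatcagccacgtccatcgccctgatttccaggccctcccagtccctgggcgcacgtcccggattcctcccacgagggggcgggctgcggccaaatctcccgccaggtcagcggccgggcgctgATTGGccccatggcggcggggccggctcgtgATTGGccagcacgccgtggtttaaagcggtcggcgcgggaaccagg
DUT, chr15:48331947-48332196, plus strand: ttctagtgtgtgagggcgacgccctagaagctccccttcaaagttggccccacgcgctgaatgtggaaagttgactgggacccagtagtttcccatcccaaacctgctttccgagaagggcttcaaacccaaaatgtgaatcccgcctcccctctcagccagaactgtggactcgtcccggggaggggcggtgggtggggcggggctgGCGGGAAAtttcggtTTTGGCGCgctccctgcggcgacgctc
DTYMK, chr2:241686816-241687065, minus strand: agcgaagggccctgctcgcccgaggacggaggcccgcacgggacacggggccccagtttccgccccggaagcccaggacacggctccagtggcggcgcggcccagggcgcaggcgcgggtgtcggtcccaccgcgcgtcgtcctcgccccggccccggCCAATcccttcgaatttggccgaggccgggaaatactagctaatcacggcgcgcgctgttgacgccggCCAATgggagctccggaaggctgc
The table has 2 starts for RRM2. The promoter shown holds 3 CCAAT boxes, at -123, -93 and -66 from its start, while that of the other start, which lies further upstream, holds 1, at -249. RRM1 holds 1, at -28. TYMS holds no CCAAT box and 1 E2F match, from -39 to -32. The table has 2 starts for TK1, and the one shown has 2 CCAAT boxes, at -77 and -46, read on the opposite strand, while the other start has none. DUT has 4 starts, of which the one shown holds 2 E2F matches, from -42 to -35 and from -27 to -20, and the other 3 hold neither element. DTYMK holds 2 CCAAT boxes, at -92 and -24. SAMHD1, not shown, holds 2 CCAAT boxes, and DCK holds neither element in this window.

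Levels are FPKM over whole gene bodies of hg19, introns included, as the authors deposited them, and library depths were 12.9 to 30.6 (units of 1e6 tags). Changes are log2 differences ± SE from 1 limma fit on scaled log2(FPKM + 1) over 9908 genes, with Benjamini-Hochberg adjusted p-values and a threshold of 0.05. This scale understates the change of genes with low values, so the ratio of mean deposited FPKM is given too. Of the 9 genes, 8 passed the filter of 1 FPKM in at least 2 libraries. SAMHD1 stayed below 1 FPKM in every library, and its tests come from a fit without that filter. The labels do not call the replicates separate cultures, so a p-value here speaks of the spread among libraries, possibly only technical. All 4 rapamycin libraries share a date code found on no control or CDK12 siRNA library, which means that rapamycin and date cannot be told apart. In bulk RNA, fewer cells in S phase and less RNA per cell cannot be told apart either.

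CDK12 itself had 0.706 and 0.707 FPKM in total RNA of CDK12 siRNA cells, against 1.64 and 1.72 FPKM in control cells, and fell by 0.55 ± 0.05 on the log2 scale (limma, adjusted p = 4.52e-05). In total RNA of rapamycin cells CDK12 had 1.25 and 1.29 FPKM, and it was lower there too, by a change of -0.37 ± 0.05 (limma, adjusted p = 0.000900). In the IP, CDK12 had 0.493 and 0.338 FPKM in CDK12 siRNA cells, against 0.497, 0.532 and 0.535 FPKM in control cells. Its change there was -0.17 ± 0.05 (limma, adjusted p = 0.0264), and replicate 2 of the CDK12 siRNA IP lay just under the lowest control library. In the rapamycin IP CDK12 was higher, at 0.916 and 0.953 FPKM (0.22 ± 0.05, limma, adjusted p = 0.0028). The mesenchymal marker VIM measured 44.3 to 208 FPKM across the libraries, and 6 of 9 mesenchymal or osteosarcoma markers reached 1 FPKM, though TWIST1 was listed at 0 in all libraries. Of the epithelial markers 3 of 7 reached 1 FPKM (KRT8, KRT18 and CLDN4), and of the haematopoietic markers 0 of 6, with PTPRC at most 0.169 FPKM. The summed epithelial markers ranged from 27.8 to 29.0 FPKM in CDK12 siRNA total RNA, from 36.1 to 41.3 FPKM in rapamycin total RNA and from 22.2 to 24.97 FPKM in control total RNA. The summed mesenchymal markers ranged there from 63.2 to 64.7 FPKM, from 165 to 176 FPKM and from 108 to 116 FPKM, in the same order of groups. The part of these shifts in the results was not tested. Within a group, the 2 libraries of the CDK12 siRNA IP differed most, where chi-square over its degrees of freedom was 57.6, and between 3.53 and 22.4 for the other replicate pairs. Among the 9 genes the higher library of that pair exceeded the lower by a median of 1.24-fold, and for DUT by 2.23-fold.

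After CDK12 siRNA most of these genes were lower in total RNA, and RRM2B was higher. Of the 8 tested, 5 fell (RRM2, TK1, TYMS, RRM1 and DTYMK), RRM2B rose, and DUT and DCK did not pass. In this comparison 42.8% of all tested genes were called, 19.5% as lower and 23.3% as higher. Higher genes made up 54.4% of these calls, and 31.7% without scaling. The median change of the 8 genes was -0.90, beside 0.02 over all tested genes. Deposited FPKM of CDK12 siRNA and control libraries did not overlap for any of the 9 genes, and they did not overlap for 78.7% of all tested genes either.

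**Figure D1:**
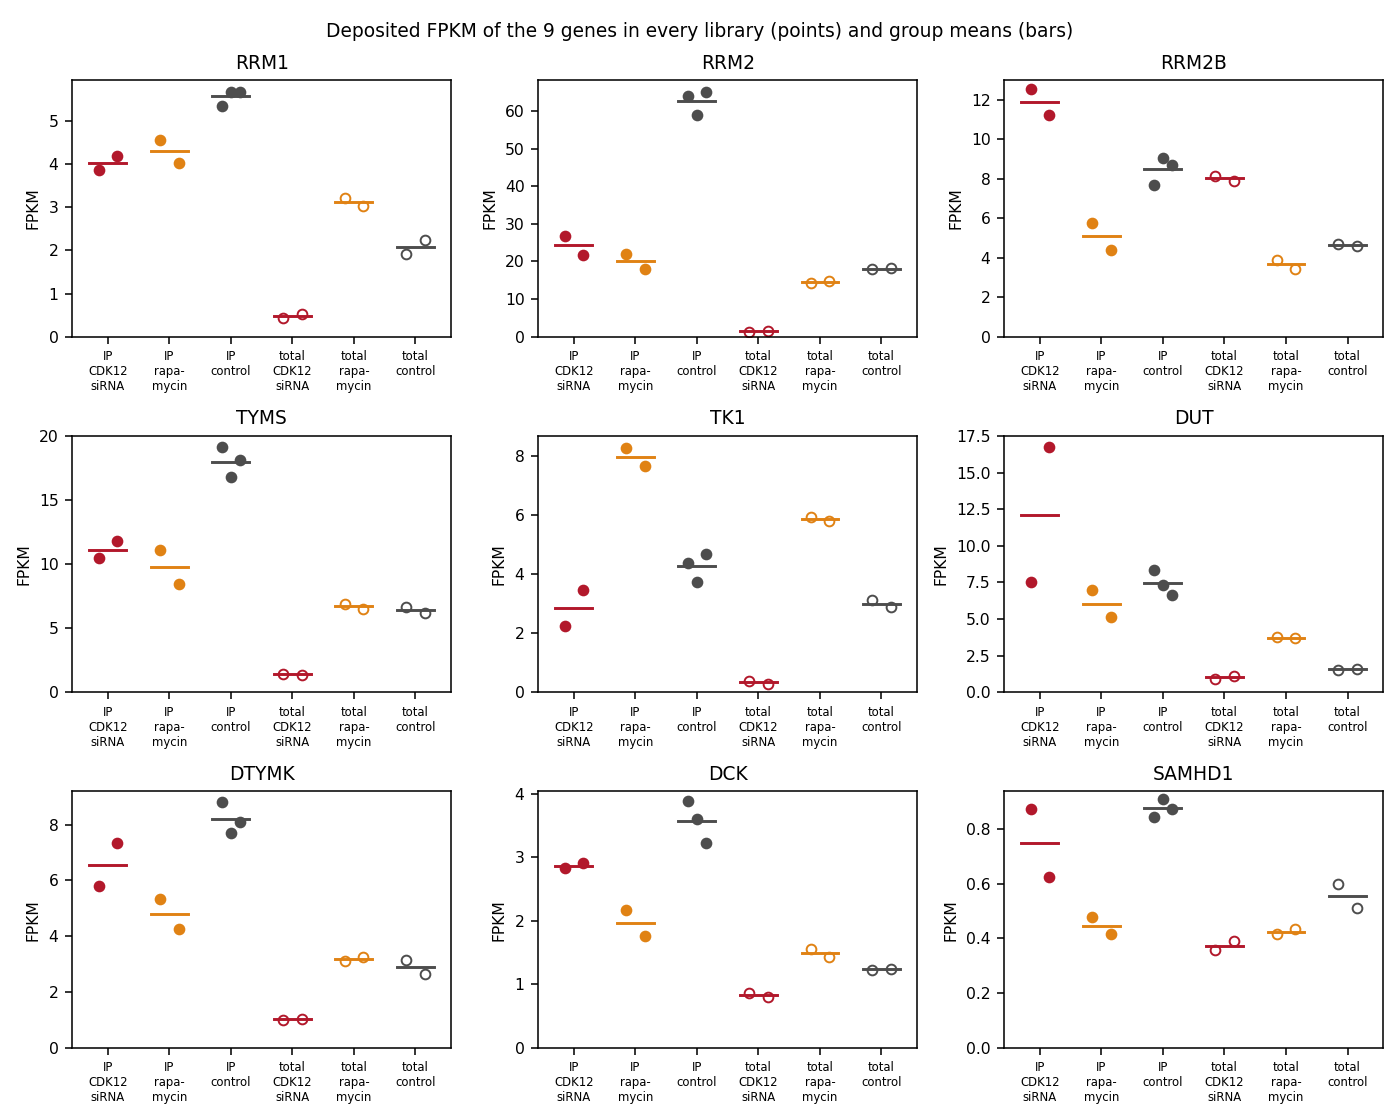
Deposited FPKM (y axis, from 0) of each of the 9 genes in every library, by group; filled points are IP libraries, open points total RNA libraries, and bars group means. In total RNA of CDK12 siRNA cells RRM2 lay at 1.29 and 1.47 FPKM, against 18.0 and 18.3 FPKM in control cells, while RRM2B lay at 8.17 and 7.89 FPKM, against 4.70 and 4.62 FPKM in control cells.

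RRM2, the S-phase small subunit of ribonucleotide reductase (hg19 chromosome 2, 10262863 to 10271546, plus strand), had 1.29 and 1.47 FPKM in total RNA of CDK12 siRNA cells, against 18.0 and 18.3 FPKM in control cells. Both CDK12 siRNA libraries lay far below both control libraries, and the mean was 13.1-fold lower. The fall was -2.87 ± 0.13 (limma, adjusted p = 8.89e-07). The RRM2 promoter printed above is the one with 3 CCAAT boxes.

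RRM2B, the small subunit that p53 is known to induce, moved the other way. It had 8.17 and 7.89 FPKM in total RNA of CDK12 siRNA cells, against 4.70 and 4.62 FPKM in control cells. Both libraries of CDK12 siRNA cells lay above both of control cells, with a mean ratio of 1.72, and the rise was 0.87 ± 0.12 (limma, adjusted p = 0.000354). RRM1, the large subunit that pairs with either small subunit (chromosome 11, 4115924 to 4160106, plus strand), had 0.433 and 0.528 FPKM in CDK12 siRNA total RNA, against 1.91 and 2.24 FPKM in control cells. RRM1 was 4.32-fold lower in the mean, and its change was -0.97 ± 0.08 (limma, adjusted p = 2.25e-05).

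The balance of the small subunits in FPKM thus shifted toward RRM2B in total RNA of CDK12 siRNA cells. The ratio of RRM2 to RRM2B FPKM was 0.158 and 0.187 there, 3.67 and 4.28 in rapamycin cells, and 3.82 and 3.96 in control cells. In FPKM, RRM2B was the highest of the 9 genes in CDK12 siRNA total RNA, and RRM2 was the highest in each of the other 5 groups. FPKM divide reads by the length of the gene body, 8683 bp for RRM2 and 34330 bp for RRM2B. Such ranks, and a ratio above or below 1, therefore do not tell which transcript was more abundant. In control total RNA, reads were 2839 and 3433 for RRM2, and 2938 and 3428 for RRM2B. In the IP the ratio was 2.14 and 1.93 in CDK12 siRNA cells, 3.82 and 4.11 in rapamycin cells, and 8.33, 6.49 and 7.48 in control cells. The FPKM ratio was thus lower in the IP of CDK12 siRNA cells than in the IP of rapamycin or control cells. Reads in the CDK12 siRNA IP were 4088 and 4037 for RRM2, and 7540 and 8276 for RRM2B.

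**Figure D2:**
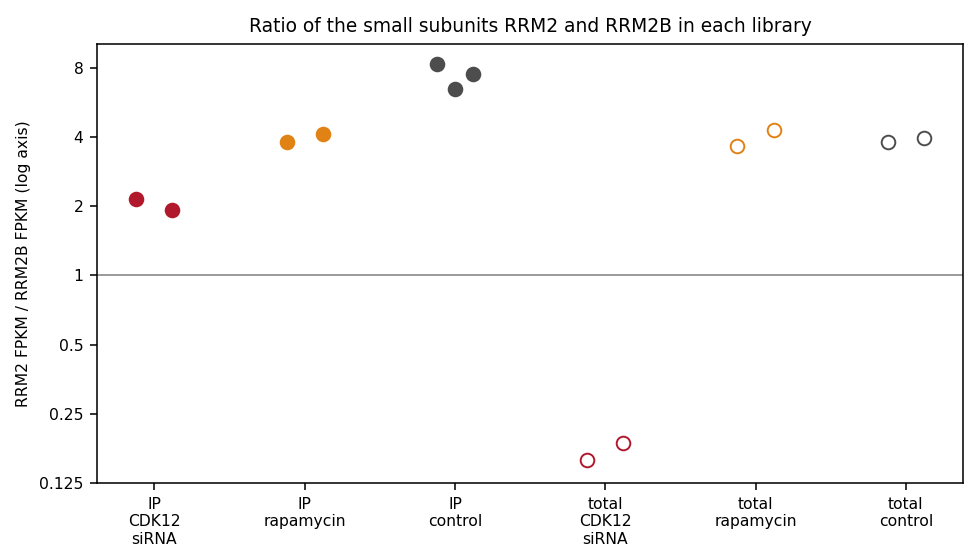
Ratio of RRM2 to RRM2B deposited FPKM in each library (log axis), by group, with a line at 1. Only the 2 total RNA libraries of CDK12 siRNA cells lie below 1, at 0.158 and 0.187. FPKM divide by gene body length, so the line does not mark equal numbers of transcripts.

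TK1, the cytosolic thymidine kinase that salvages thymidine (chromosome 17, 76170160 to 76183285, minus strand), had 0.391 and 0.275 FPKM in total RNA of CDK12 siRNA cells, against 3.13 and 2.89 FPKM in control cells. It was 9.04-fold lower in the mean, with a change of -1.52 ± 0.15 (limma, adjusted p = 4.41e-05). The lowest TK1 value, 0.275 FPKM, rests on 62 reads. TYMS, the thymidylate synthase that makes thymidylate from deoxyuridylate (chromosome 18, 657604 to 673499, plus strand), had 1.46 and 1.34 FPKM in CDK12 siRNA total RNA, against 6.67 and 6.21 FPKM in control cells. The groups lay apart, 4.61-fold in the mean, and the change was -1.50 ± 0.13 (limma, adjusted p = 2.26e-05). ENOSF1 and TYMSOS on the minus strand overlap 19.97% and 4.63% of the TYMS gene body, and whether counting used strand is not given in these sources, so TYMS values are uncertain by their reads. ENOSF1 averaged 0.427 FPKM in CDK12 siRNA total RNA and 1.45 FPKM in control total RNA, and TYMSOS averaged 0.503 and 0.584 FPKM there, so both measured below TYMS.

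DTYMK, the kinase that turns thymidylate into its diphosphate (chromosome 2, 242615157 to 242626383, minus strand), had 1.00 and 1.03 FPKM in total RNA of CDK12 siRNA cells, against 3.15 and 2.66 FPKM in control cells. It was 2.85-fold lower, with a change of -0.83 ± 0.13 (limma, adjusted p = 0.000794). DUT, which removes deoxyuridine triphosphate and so keeps uracil out of DNA (chromosome 15, 48624365 to 48635570, plus strand), had 0.907 and 1.11 FPKM in CDK12 siRNA total RNA, against 1.54 and 1.62 FPKM in control cells. The libraries did not overlap, but the change of -0.25 did not pass, with a 95% interval of -0.90 to 0.40 (limma, adjusted p = 0.527). No alternative run gave a call, and the lowest adjusted p among them was 0.0664, with the compared groups alone.

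DCK, the deoxycytidine kinase of nucleoside salvage (chromosome 4, 71859265 to 71896629, plus strand), had 0.871 and 0.802 FPKM in total RNA of CDK12 siRNA cells, against 1.23 and 1.24 FPKM in control cells. Its change of -0.18 did not pass (95% interval -0.38 to 0.03, limma, adjusted p = 0.144). It passed without scaling (-0.28, adjusted p = 0.0197), with quantile normalization (adjusted p = 0.0149), with the compared groups alone (adjusted p = 0.0313) and with library weights (adjusted p = 0.0367). SAMHD1, which breaks deoxynucleotides down (chromosome 20, 35520227 to 35580246, minus strand), had 0.357 and 0.389 FPKM there, against 0.601 and 0.513 FPKM in control cells, and its change of -0.12 did not pass (limma, adjusted p = 0.169). TLDC2 on the plus strand overlaps 4.01% of SAMHD1 and measured 0.347 to 1.02 FPKM across the libraries, so SAMHD1 values are uncertain too.

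Most of these genes were also lower in the eIF4G IP after CDK12 siRNA. Of the 8 tested genes 6 fell (RRM2, TYMS, TK1, RRM1, DTYMK and DCK) and none rose past the threshold, in a comparison that called 32% of all tested genes, 18.4% as lower and 13.7% as higher. Of these calls 42.7% were higher, and 70.8% without scaling. The median change was -0.49, beside -0.02 over all tested genes. With the compared groups alone, or with library weights, 3 of the 8 were called (RRM2, TYMS and RRM1), beside 1015 and 1105 of all tested genes. TK1, DTYMK and DCK then had adjusted p-values of 0.101, 0.101 and 0.0830 with the compared groups alone, and of 0.0512, 0.103 and 0.0889 with library weights.

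RRM2 had 26.9 and 21.6 FPKM in the IP of CDK12 siRNA cells, against 64.0, 59.0 and 65.0 FPKM in control cells. That is 2.58-fold lower in the mean, and the change was -1.52 ± 0.12 (limma, adjusted p = 7.25e-05). RRM1 had 3.88 and 4.202 FPKM there, against 5.35, 5.68 and 5.68 FPKM in control cells, a change of -0.54 ± 0.08 (limma, adjusted p = 0.00109). Neither subunit's CDK12 siRNA libraries overlapped its control libraries, which held for 51.1% of all tested genes. RRM2B had 12.5 and 11.2 FPKM, against 7.69, 9.08 and 8.69 FPKM in control cells. Both of its CDK12 siRNA libraries were the higher ones, but the change of 0.28 did not pass (95% interval 0.03 to 0.52, limma, adjusted p = 0.0774). It passed without scaling (0.44, adjusted p = 0.0145), after removal of a length trend (0.35, adjusted p = 0.0184) and with a pseudocount of 5 (0.21, adjusted p = 0.0404), as well as without either rapamycin IP library (adjusted p = 0.0274 and 0.0271).

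TYMS had 10.5 and 11.8 FPKM in the IP of CDK12 siRNA cells, against 19.2, 16.8 and 18.1 FPKM in control cells, and changed by -0.82 ± 0.12 (limma, adjusted p = 0.00116). TK1 had 2.24 and 3.48 FPKM, against 4.38, 3.74 and 4.69 FPKM in control cells, and changed by -0.61 ± 0.13 (limma, adjusted p = 0.00839). Its higher CDK12 siRNA library lay just under the lowest control library. DTYMK had 5.81 and 7.32 FPKM, against 8.79, 7.71 and 8.08 FPKM in control cells, and changed by -0.45 ± 0.12 (limma, adjusted p = 0.0185). The DTYMK call was lost without scaling (-0.29, adjusted p = 0.0735), without replicate 2 of the CDK12 siRNA IP (adjusted p = 0.0874) and without replicate 1 of the control IP (adjusted p = 0.0510). DCK had 2.84 and 2.91 FPKM, against 3.88, 3.60 and 3.23 FPKM in control cells, and changed by -0.38 ± 0.08 (limma, adjusted p = 0.00807).

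Among the 9 genes, DUT differed most between the pair of CDK12 siRNA IP libraries. It had 7.51 and 16.7 FPKM there, against 8.37, 7.30 and 6.66 FPKM in control cells. One library lay inside the control range and the other above it, and the change of 0.38 did not pass (95% interval -0.21 to 0.98, limma, adjusted p = 0.301). Without replicate 2, the library inside the control range, the change was 0.93 (adjusted p = 0.00275), so the value rests on 1 library. SAMHD1 had 0.873 and 0.624 FPKM, against 0.846, 0.910 and 0.875 FPKM in control cells. Its libraries also split, with one inside the control range and the other below it, and the change was -0.19 ± 0.05 (limma without the filter, adjusted p = 0.0489). That call was lost under 19 of 22 alternatives run without the filter, among them no scaling (-0.11, adjusted p = 0.307), the compared groups alone (adjusted p = 0.259) and each left-out library but replicate 2 of the CDK12 siRNA IP. Without replicate 3 of that IP, the change was -0.10 (adjusted p = 0.203), and without replicate 2 it was -0.29 (adjusted p = 0.00367).

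With rapamycin, TK1 rose in total RNA, RRM2 and RRM2B fell, and 5 of the 8 tested genes did not pass, while without scaling 3 rose and 0 fell, and with quantile normalization 3 rose and 4 fell. In this comparison 36.7% of all tested genes were called, 20.4% as higher and 16.2% as lower. Higher genes made up 55.7% of these calls, 82.2% without scaling and 45.4% with quantile normalization. The median change was -0.04, beside 0.06 over all tested genes. Leaving out a library of either group left 0 or 1 of the 3 calls, so these calls depend on each single library of the comparison.

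TK1 had 5.96 and 5.80 FPKM in total RNA of rapamycin cells, against 3.13 and 2.89 FPKM in control cells, 1.95-fold higher, with a change of 0.56 ± 0.15 (limma, adjusted p = 0.0161). RRM2 had 14.3 and 14.7 FPKM, against 18.0 and 18.3 FPKM in control cells, and changed by -0.54 ± 0.13 (limma, adjusted p = 0.0125). RRM2B had 3.91 and 3.43 FPKM, against 4.70 and 4.62 FPKM in control cells, and changed by -0.47 ± 0.12 (limma, adjusted p = 0.0126). The groups did not overlap for any of these 3 genes, nor for 85.1% of all tested genes. Without scaling, the RRM2 and RRM2B changes were -0.30 and -0.28 and no longer passed (adjusted p = 0.0815 and 0.0828).

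RRM1 and DUT were higher in both rapamycin total RNA libraries without passing the test. RRM1 had 3.23 and 3.04 FPKM in rapamycin cells, against 1.91 and 2.24 FPKM in control cells, a difference of 0.24 with a 95% interval of 0.05 to 0.43 (limma, adjusted p = 0.0532). It passed under several alternatives, among them no scaling (0.43, adjusted p = 0.00198). DUT had 3.76 and 3.68 FPKM, against 1.54 and 1.62 FPKM in control cells, 2.35-fold higher in the mean. Its difference of 0.67 had a 95% interval of 0.01 to 1.32 (limma, adjusted p = 0.101), and it passed with the compared groups alone (adjusted p = 0.00319). TYMS had 6.93 and 6.48 FPKM, against 6.67 and 6.21 FPKM, and DTYMK had 3.12 and 3.24 FPKM, against 3.15 and 2.66 FPKM, with overlapping groups for both. Their differences of -0.17 (95% interval -0.46 to 0.13) and -0.09 (-0.38 to 0.20) did not pass. With quantile normalization, TYMS and DTYMK passed as lower (-0.48, adjusted p = 0.000619, and -0.26, adjusted p = 0.0359). DCK had 1.56 and 1.43 FPKM, against 1.23 and 1.24 FPKM, with a difference of 0.01 (95% interval -0.20 to 0.21), and SAMHD1 had 0.418 and 0.433 FPKM, against 0.601 and 0.513 FPKM, with a change of -0.19 ± 0.06 (limma without the filter, adjusted p = 0.0418). The SAMHD1 call was lost under 12 of 22 alternatives run without the filter, with no scaling among them (-0.13, adjusted p = 0.168), and without any 1 of the 4 libraries compared (adjusted p = 0.0768 to 0.176).

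In the eIF4G IP of rapamycin cells most of these genes were lower, and TK1 was again higher. Of the 8 tested, 6 fell (RRM2, TYMS, DTYMK, RRM2B, DCK and RRM1) and TK1 rose, while 72.5% of all tested genes were called in this comparison, 40.3% as lower and 32.2% as higher. Among them 44.5% were higher, 57.7% without scaling and 55.8% after removal of a length trend. The median change was -0.89, beside -0.05 over all tested genes. Across tested genes (no independent replicates), the mean of the rapamycin IP correlated more with rapamycin total RNA (r = 0.944) than with the control IP (r = 0.838).

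RRM2 had 22.1 and 18.0 FPKM in the IP of rapamycin cells, against 64.0, 59.0 and 65.0 FPKM in control cells, 3.13-fold lower, with a change of -1.91 ± 0.12 (limma, adjusted p = 9.25e-07). RRM2B had 5.78 and 4.38 FPKM, against 7.69, 9.08 and 8.69 FPKM in control cells, a change of -0.92 ± 0.11 (limma, adjusted p = 4.19e-05). RRM1 had 4.57 and 4.04 FPKM, against 5.35, 5.68 and 5.68 FPKM, a change of -0.57 ± 0.08 (limma, adjusted p = 0.000106). With quantile normalization RRM1 changed by -0.17 and did not pass (adjusted p = 0.0666). The 3 subunits of the reductase were thus all lower in the rapamycin IP, with no overlap between groups, as for 82.3% of all tested genes.

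TYMS had 11.1 and 8.49 FPKM in the IP of rapamycin cells, against 19.2, 16.8 and 18.1 FPKM in control cells, a change of -1.12 ± 0.12 (limma, adjusted p = 2.22e-05). DTYMK had 5.33 and 4.26 FPKM, against 8.79, 7.71 and 8.08 FPKM, a change of -0.94 ± 0.12 (limma, adjusted p = 6.62e-05). TK1 had 8.30 and 7.66 FPKM, against 4.38, 3.74 and 4.69 FPKM, and rose by 0.50 ± 0.13 (limma, adjusted p = 0.00726). Every library of the rapamycin IP was thus below the control IP for TYMS and DTYMK and above it for TK1. The TK1 call was lost without replicate 1 of the rapamycin IP (0.45, adjusted p = 0.0514). DUT had 6.96 and 5.16 FPKM, against 8.37, 7.30 and 6.66 FPKM, with overlap, and its difference of -0.54 did not pass (95% interval -1.14 to 0.06, limma, adjusted p = 0.0934), though it did with the compared groups alone (adjusted p = 0.0353). DCK had 2.17 and 1.75 FPKM, against 3.88, 3.60 and 3.23 FPKM, a change of -0.85 ± 0.08 (limma, adjusted p = 1.19e-05), and SAMHD1 had 0.477 and 0.417 FPKM, against 0.846, 0.910 and 0.875 FPKM, a change of -0.50 ± 0.05 (limma without the filter, adjusted p = 9.00e-05).

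**Figure D3:**
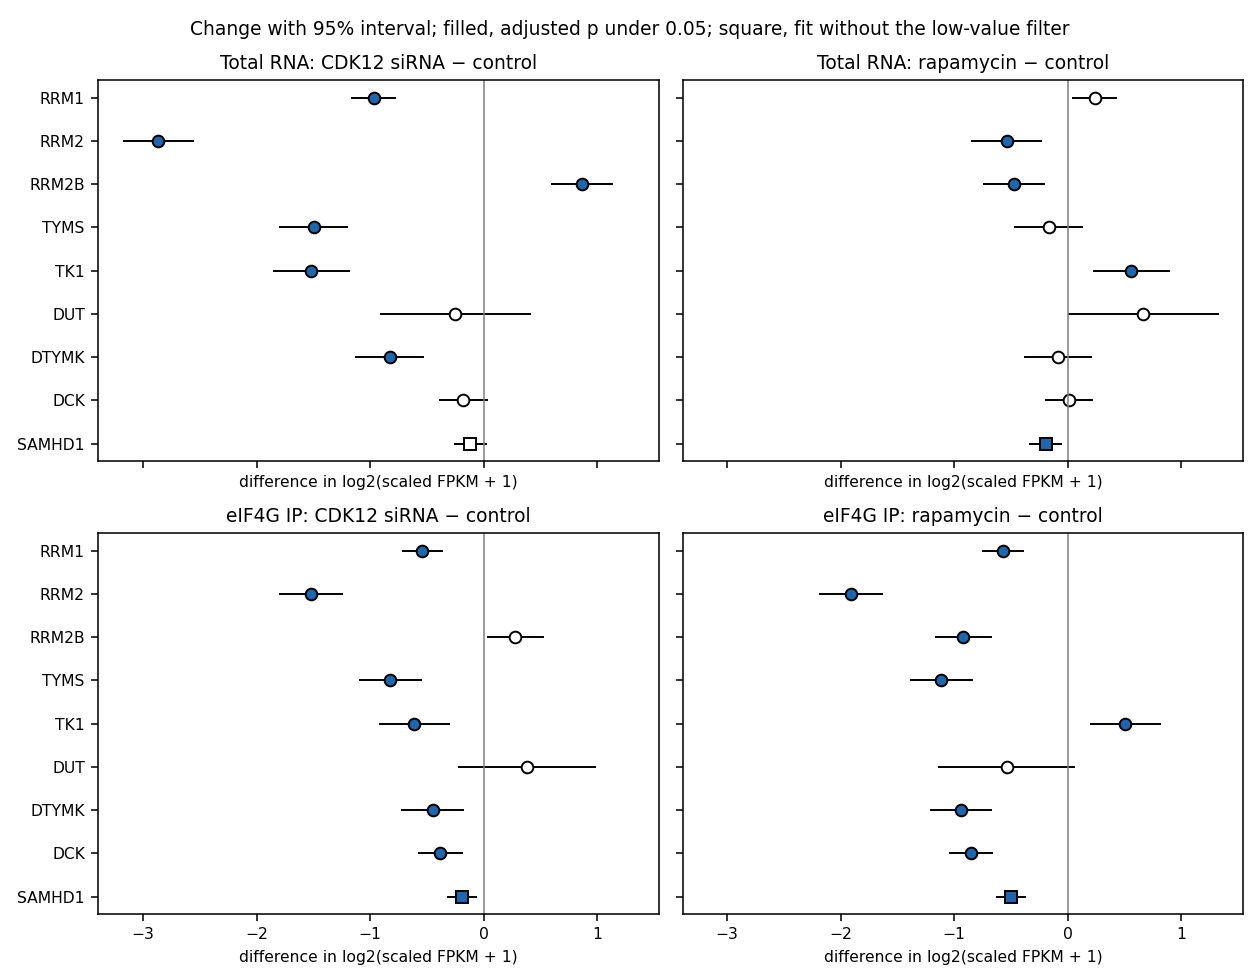
Change of each gene on the scaled log2(FPKM + 1) scale (x axis) with its 95% interval, for CDK12 siRNA (left) and rapamycin (right) against control, in total RNA (top) and in the eIF4G IP (bottom); filled points passed an adjusted p of 0.05, and the square is SAMHD1 from the fit without the filter. After CDK12 siRNA RRM2 fell by 2.87 in total RNA and by 1.52 in the IP, and with rapamycin it fell by 0.54 and by 1.91.

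CDK12 siRNA cells were also set directly against rapamycin cells in total RNA. Of the 8 tested genes, 6 were lower in CDK12 siRNA cells than in rapamycin cells (RRM2, TK1, TYMS, RRM1, DUT and DTYMK), RRM2B was higher and DCK did not pass, while 59.1% of all tested genes were called, 32.4% as lower and 26.7% as higher. Among the calls 45.2% were higher, and 18.8% without scaling. The difference was -2.33 ± 0.13 for RRM2 (limma, adjusted p = 1.30e-06), -2.08 ± 0.15 for TK1 (adjusted p = 4.25e-06) and 1.34 ± 0.12 for RRM2B (adjusted p = 1.47e-05). TK1 was 17.6-fold lower in the mean of CDK12 siRNA cells than in that of rapamycin cells. The DUT difference of -0.92 ± 0.29 (adjusted p = 0.0220) was lost when any 1 of the 4 libraries was left out, with adjusted p-values of 0.0569 to 0.0991, and with a pseudocount of 5 (adjusted p = 0.153). DCK differed by -0.19 (95% interval -0.39 to 0.02, adjusted p = 0.102) and passed without scaling (-0.44, adjusted p = 0.00101).

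The IP was set against total RNA to ask how the RNA that came down with eIF4G relates to what the cells held. FPKM count intron reads too, and the share of such reads in each fraction was not measured. Its part in these differences, and in the interactions below, was not tested. In CDK12 siRNA cells 8 of the 8 tested genes were higher in the IP, where 82.5% of all tested genes were called, 55.7% as higher and 26.8% as lower. In rapamycin cells 7 of 8 were higher in the IP, all but DUT, where 51.9% were called, 38.9% as higher and 13.1% as lower. In control cells 8 of 8 were higher, where 80.5% were called, 54% as higher and 26.4% as lower. Higher genes made up 67.5%, 74.8% and 67.2% of the calls in CDK12 siRNA, rapamycin and control cells, 52.4%, 51.1% and 50.8% with quantile normalization, 49.3%, 48.9% and 46.1% after removal of a length trend, and 71.8%, 61.9% and 61.9% without scaling. With quantile normalization the change turned negative for RRM2 (-0.32), RRM2B (-0.33), TYMS (-0.07) and TK1 (-0.30) in control cells, for RRM2B (-1.16) in CDK12 siRNA cells, and for RRM2 (-0.13) and TK1 (-0.0015) in rapamycin cells, so the sign of these differences depends on the scaling. After removal of a length trend, TK1 also turned in control cells (-0.13). In CDK12 siRNA cells the RRM2B call was lost without replicate 2 of the IP or either total RNA library (adjusted p = 0.0779, 0.0703 and 0.0913), after removal of a length trend (0.13, adjusted p = 0.264), with the compared groups alone (adjusted p = 0.0531) and with library weights (adjusted p = 0.0783). In rapamycin cells 3 of the 8 genes were called without replicate 1 of the IP, 4 without replicate 2 of total RNA, 4 after removal of a length trend and 1 with quantile normalization.

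RRM2 had the largest IP to total ratio of mean FPKM among the 9 genes in CDK12 siRNA cells, at 17.6, against 1.38 in rapamycin cells and 3.46 in control cells. DUT followed in CDK12 siRNA cells at 12.01, against 1.63 in rapamycin cells and 4.70 in control cells, but its value rests on 1 library: with the IP libraries of CDK12 siRNA cells taken singly it was 7.45 and 16.6. TK1 had 8.59 in CDK12 siRNA cells, 1.36 in rapamycin cells and 1.42 in control cells. RRM1 had 8.41, 1.37 and 2.69, and TYMS had 7.98, 1.46 and 2.80, in the same order of groups. RRM2B had a lower ratio in CDK12 siRNA cells (1.48) than in control cells (1.82), with 1.38 in rapamycin cells. After scaling, the ratio was lower in CDK12 siRNA than in control cells for DCK (3.00 against 3.33) and SAMHD1 (1.75 against 1.81) as well. In rapamycin cells the ratios of all 9 genes lay between 1.05 and 1.63.

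**Figure D4:**
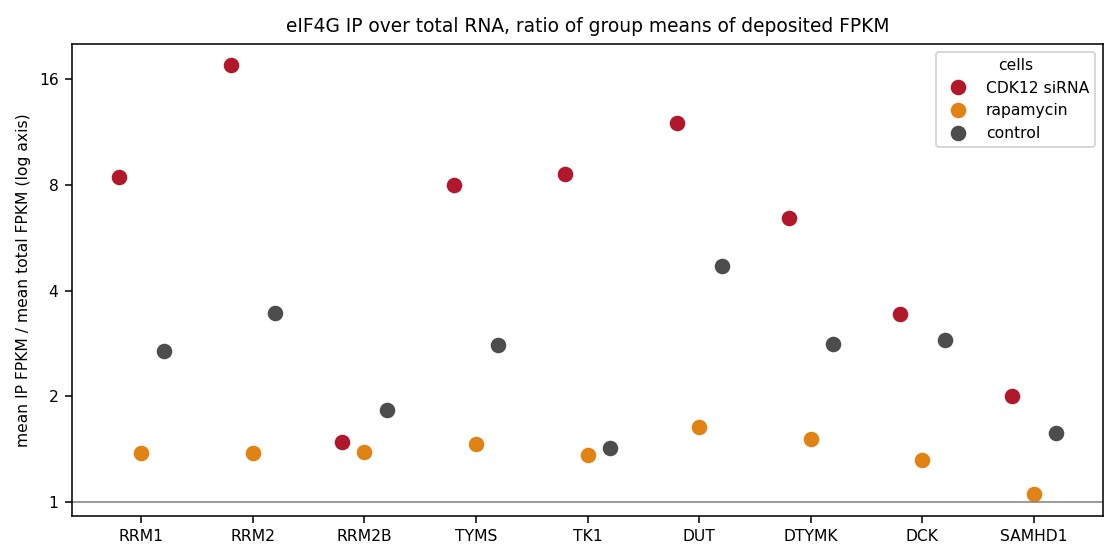
Ratio of mean deposited FPKM in the eIF4G IP to mean deposited FPKM in total RNA (y axis, log scale) for each gene in CDK12 siRNA, rapamycin and control cells; single points are ratios of group means without an error. The CDK12 siRNA ratio of RRM2 is 17.6, against 3.46 in control cells, and the rapamycin ratios lie between 1.05 and 1.63.

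Whether the change in the IP differed from the change in total RNA was tested by the interaction of fraction and treatment. For CDK12 siRNA, 4 of 8 had a higher IP to total difference than in control cells (RRM2, TK1, TYMS and RRM1), RRM2B had a lower one, and 3 did not pass, while 39.2% of all tested genes were called, 16.7% as higher and 22.4% as lower. Of these interactions 42.7% were higher, and 78.4% without scaling. The interaction was 1.35 ± 0.18 for RRM2 (limma, adjusted p = 0.000686), 0.90 ± 0.20 for TK1 (adjusted p = 0.00695) and 0.67 ± 0.18 for TYMS (adjusted p = 0.0149). It was 0.43 ± 0.11 for RRM1 (adjusted p = 0.0159) and -0.59 ± 0.16 for RRM2B (adjusted p = 0.0176). These genes were lower in both fractions after CDK12 siRNA, except RRM2B, and a positive interaction is a smaller fall in the IP than in total RNA. With a pseudocount of 5 the interactions of RRM2, TK1, TYMS and RRM1 did not pass (0.41, 0.24, 0.12 and 0.02), and without scaling that of RRM2B did not (-0.23, adjusted p = 0.291). RRM1, RRM2B and TYMS also lost the call without 1 or more of the 4 total RNA libraries of the comparison, with adjusted p-values up to 0.0707.

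For rapamycin, 7 of 8 had a lower IP to total difference than in control cells, all but TK1, while 62.3% of all tested genes were called, 37.9% as lower and 24.5% as higher. Higher genes made up 39.2% of these calls, 52.3% with quantile normalization and 55.7% after removal of a length trend. The interaction was -1.37 ± 0.18 for RRM2 (limma, adjusted p = 0.000184), -0.95 ± 0.18 for TYMS (adjusted p = 0.0013), -0.86 ± 0.12 for DCK (adjusted p = 0.000282), -0.85 ± 0.18 for DTYMK (adjusted p = 0.00225) and -0.81 ± 0.11 for RRM1 (adjusted p = 0.000266). DUT had -1.20 ± 0.39 (adjusted p = 0.0235) and RRM2B had -0.45 ± 0.16 (adjusted p = 0.0348), and both calls were lost without either total RNA library of rapamycin cells or of control cells (adjusted p = 0.0509 to 0.126). Both were also lost without replicate 2 of the rapamycin IP (DUT -0.998, adjusted p = 0.0930, and RRM2B -0.26, adjusted p = 0.121) and after removal of a length trend (DUT -0.79, adjusted p = 0.0841, and RRM2B -0.24, adjusted p = 0.155). The DUT call was lost with a pseudocount of 5 (-0.65, adjusted p = 0.0759), and that of RRM2B without scaling (-0.37, adjusted p = 0.0799), with a pseudocount of 0.1 (adjusted p = 0.0558), with the replicate block (adjusted p = 0.0528), without replicate 2 or 3 of the control IP (adjusted p = 0.0605 and 0.0534) and without either CDK12 siRNA total RNA library (adjusted p of at most 0.0504). The TK1 interaction was -0.06, with a 95% interval of -0.51 to 0.39 (adjusted p = 0.826), and its sign changed with the processing. With quantile normalization the interaction turned positive for RRM2 (0.19), TYMS (0.12) and RRM2B (0.41), and RRM2B then passed as higher (adjusted p = 0.0307), while DTYMK no longer passed (-0.16, adjusted p = 0.315).

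The authors' deposited table marks genes with calls of its own, made on log2 differences of FPKM + 1. It marks lost eIF4G binding with rapamycin for 6 of the 9 genes (RRM1, RRM2, TYMS, DUT, DTYMK and DCK), and for 12.4% of all genes. It marks lost binding after CDK12 siRNA for 0 of the 9, and for 4.21% of all genes. By the authors' deposited table, the expression of 4 of the 9 changed after CDK12 siRNA (RRM1, RRM2, TYMS and TK1), beside 2.12% of all genes, and 0 of the 9 with rapamycin, beside 2.42%. These shares are over all 26454 genes, of which only 9908 passed the filter of the tests above, so they are not shares of tested genes. The share among those 9908 genes was not computed. The authors' calls rest on the same libraries as the tests above.

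The rest of the pathway was read from 4 lists. Their counts stand beside calls for 42.8% of all tested genes in total RNA and 32% in the IP after CDK12 siRNA, and for 36.7% and 72.5% with rapamycin. Of the enzymes of purine and pyrimidine de novo synthesis, 6 of 15 fell and 1 rose in total RNA after CDK12 siRNA, with a median of -0.22, beside 0.02 over all tested genes. CAD, which starts pyrimidine synthesis, averaged 1.22 ± 0.115 FPKM in CDK12 siRNA cells and 3.03 ± 0.491 FPKM in control cells (SD, n = 2 each) and changed by -0.72 ± 0.09 (adjusted p = 0.000218), and GMPS, which makes guanylate, changed by -0.28 ± 0.05 (adjusted p = 0.00095). In the IP 6 of 15 fell and 0 rose after CDK12 siRNA (median -0.23, beside -0.02 over all tested genes), among them PRPS1, which makes the ribose phosphate donor (-0.56 ± 0.07, adjusted p = 0.000759), and CTPS1, a CTP synthase (-0.51 ± 0.08, adjusted p = 0.00222). With rapamycin 5 of 15 fell and 3 rose in total RNA, with a median of -0.16, beside 0.06 over all tested genes. That median was 0.01 without scaling (2 fell and 3 rose) and -0.31 with quantile normalization (9 fell and 2 rose). In the rapamycin IP 8 fell and 3 rose (median -0.28, beside -0.05 over all tested genes, and -0.06, -0.05 and -0.14 without scaling, after removal of a length trend and with quantile normalization), where PRPS1 changed by -1.07 ± 0.07 (adjusted p = 1.38e-06). GMPS was lower in rapamycin total RNA (-0.41 ± 0.05, adjusted p = 0.00024).

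Of the 9 tested genes of folate and one-carbon supply, which feeds the TYMS reaction, 2 fell and 1 rose in total RNA after CDK12 siRNA (median -0.04, beside 0.02 over all tested genes), a smaller share than the 42.8% called among all tested genes. In the IP 5 fell and 2 rose (median -0.26, beside -0.02), where 32% of all tested genes were called. MTHFD1, an enzyme of one-carbon transfer, fell after CDK12 siRNA in total RNA (-0.54 ± 0.05, adjusted p = 4.37e-05) and in the IP (-0.49 ± 0.05, adjusted p = 0.000164). MTHFD1 overlaps 2 other genes, so its values are uncertain. With rapamycin 2 rose and 2 fell in total RNA (median 0.17), and 5 fell and 3 rose in the IP (median -0.19), or 3 and 4 with quantile normalization.

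Of the 16 tested nucleotide and nucleoside kinases, 4 rose and 4 fell in total RNA after CDK12 siRNA, and 5 fell and 1 rose in the IP (median -0.08), where without scaling 1 fell and 3 rose (median 0.04). The median in total RNA was -0.004, 0.005 with quantile normalization and -0.14 without scaling, where 1 rose and 5 fell. NME4, a nucleoside diphosphate kinase, fell in total RNA (-0.80 ± 0.17, adjusted p = 0.00392), and ADK, adenosine kinase, rose (0.74 ± 0.06, adjusted p = 1.01e-05). NME1 fell in the CDK12 siRNA IP (-1.29 ± 0.18, adjusted p = 0.000912), and both ADK and NME1 overlap 1 other gene. With rapamycin 6 rose and 3 fell in total RNA (median 0.04), or 5 and 7 with quantile normalization (median -0.006), and 9 fell and 2 rose in the IP (median -0.57), among them CMPK1, a pyrimidine nucleotide kinase (-1.64 ± 0.09, adjusted p = 5.46e-07). Of the 12 tested genes of salvage and breakdown, 3 rose and 2 fell in total RNA after CDK12 siRNA (median -0.14), or 2 and 3 without scaling, and 4 fell and 0 rose in the IP (median -0.09), or 2 and 4 without scaling. UPP1, a uridine phosphorylase, averaged 5.00 ± 0.0502 FPKM in CDK12 siRNA total RNA and 1.19 ± 0.0156 FPKM in control total RNA (SD, n = 2 each) and rose by 1.63 ± 0.15 (adjusted p = 2.65e-05). PNP, a purine nucleoside phosphorylase, rose there by 0.86 ± 0.12 (adjusted p = 0.000407). With rapamycin 4 rose and 1 fell in total RNA (median 0.07), or 3 and 4 with quantile normalization, and 7 fell and 2 rose in the IP (median -0.63).

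The regulators that the background names were counted in the same way. Among all tested genes, 19.5% were called as lower and 23.3% as higher in total RNA after CDK12 siRNA, and 18.4% and 13.7% in the IP. With rapamycin 16.2% were lower and 20.4% higher in total RNA, and 40.3% and 32.2% in the IP. Medians over all tested genes were -0.02 in the CDK12 siRNA IP, and 0.06 and -0.05 in rapamycin total RNA and IP. Of 21 tested E2F factors and E2F target genes of the G1/S transition, 18 fell and 1 rose in total RNA after CDK12 siRNA, with a median of -0.97, beside -0.90 for the 8 genes above and 0.02 over all tested genes. MCM4, a subunit of the replicative helicase, averaged 1.59 ± 0.0898 FPKM in CDK12 siRNA cells and 6.65 ± 0.128 FPKM in control cells (SD, n = 2 each) and changed by -1.42 ± 0.06 (adjusted p = 7.82e-07), and CDT1, which loads that helicase, changed by -1.20 ± 0.07 (adjusted p = 2.19e-06). In the IP 12 of 21 fell and 0 rose, with a median of -0.25, led by RFC4 (-1.17 ± 0.11, adjusted p = 0.000143), a clamp loader subunit that overlaps 1 other gene, and MYBL2, a cell cycle transcription factor (-0.67 ± 0.08, adjusted p = 0.000475). Without scaling 7 fell and 0 rose in that IP (median -0.14), and with quantile normalization 8 fell and 0 rose (median -0.20). The lists were not counted with the compared groups alone. With rapamycin 7 of 21 fell and 1 rose in total RNA, with a median of -0.16 that was 0.01 without scaling (3 fell and 5 rose) and -0.42 with quantile normalization (15 fell and 1 rose). In the IP 14 fell and 5 rose, with a median of -0.64 that was -0.34 without scaling (12 fell and 5 rose) and -0.16 with quantile normalization (10 fell and 6 rose), and CCNE1, cyclin E1, changed by -1.67 ± 0.07 (adjusted p = 1.39e-07).

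Of 16 tested p53 pathway genes, 11 rose and 3 fell in total RNA after CDK12 siRNA, with a median of 0.58, beside 0.02 over all tested genes. Of all tested genes 23.3% were called as higher there and 19.5% as lower. ZMAT3, an RNA-binding protein, averaged 3.43 ± 0.00354 FPKM in CDK12 siRNA cells and 1.74 ± 0.141 FPKM in control cells (SD, n = 2 each) and rose by 0.86 ± 0.06 (adjusted p = 6.29e-06), beside 0.87 for RRM2B. TNFRSF10B, a death receptor that overlaps 2 other genes, rose by 0.86 ± 0.06 (adjusted p = 3.87e-06). XPC (-0.54, adjusted p = 0.000631) and DDB2 (-0.25, adjusted p = 0.0151), which recognise damaged DNA, were among those that fell, and are named here after their values were seen. In the IP, where 13.7% of all tested genes were called as higher and 18.4% as lower, 7 rose and 1 fell. The median was 0.24, beside -0.02 over all tested genes, and without scaling 12 rose and 0 fell (median 0.35). Genes that rose include BBC3 (1.04 ± 0.10, adjusted p = 0.000127), a cell death gene that overlaps 2 other genes, and SESN1, a stress-induced inhibitor of mTORC1 signalling (0.31 ± 0.06, adjusted p = 0.00392). With rapamycin 3 rose and 3 fell in total RNA, where 20.4% of all tested genes were called as higher and 16.2% as lower. The list median was -0.005, beside 0.06 over all tested genes. That list median was 0.16 without scaling (6 rose and 0 fell) and -0.10 with quantile normalization (2 rose and 5 fell). In the rapamycin IP 8 fell and 6 rose, where 40.3% of all tested genes were called as lower and 32.2% as higher. The list median was -0.17 there, beside -0.05 over all tested genes. That list median was 0.04 without scaling, 0.07 after removal of a length trend and 0.18 with quantile normalization (7 rose and 4 fell). Of the 16 genes, 10 did not pass in rapamycin total RNA, where 36.7% of all tested genes were called. RRM2B was lower there, and without scaling its change did not pass (limma, adjusted p = 0.0828). A link between RRM2B and this list was not tested.

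**Figure D5:**
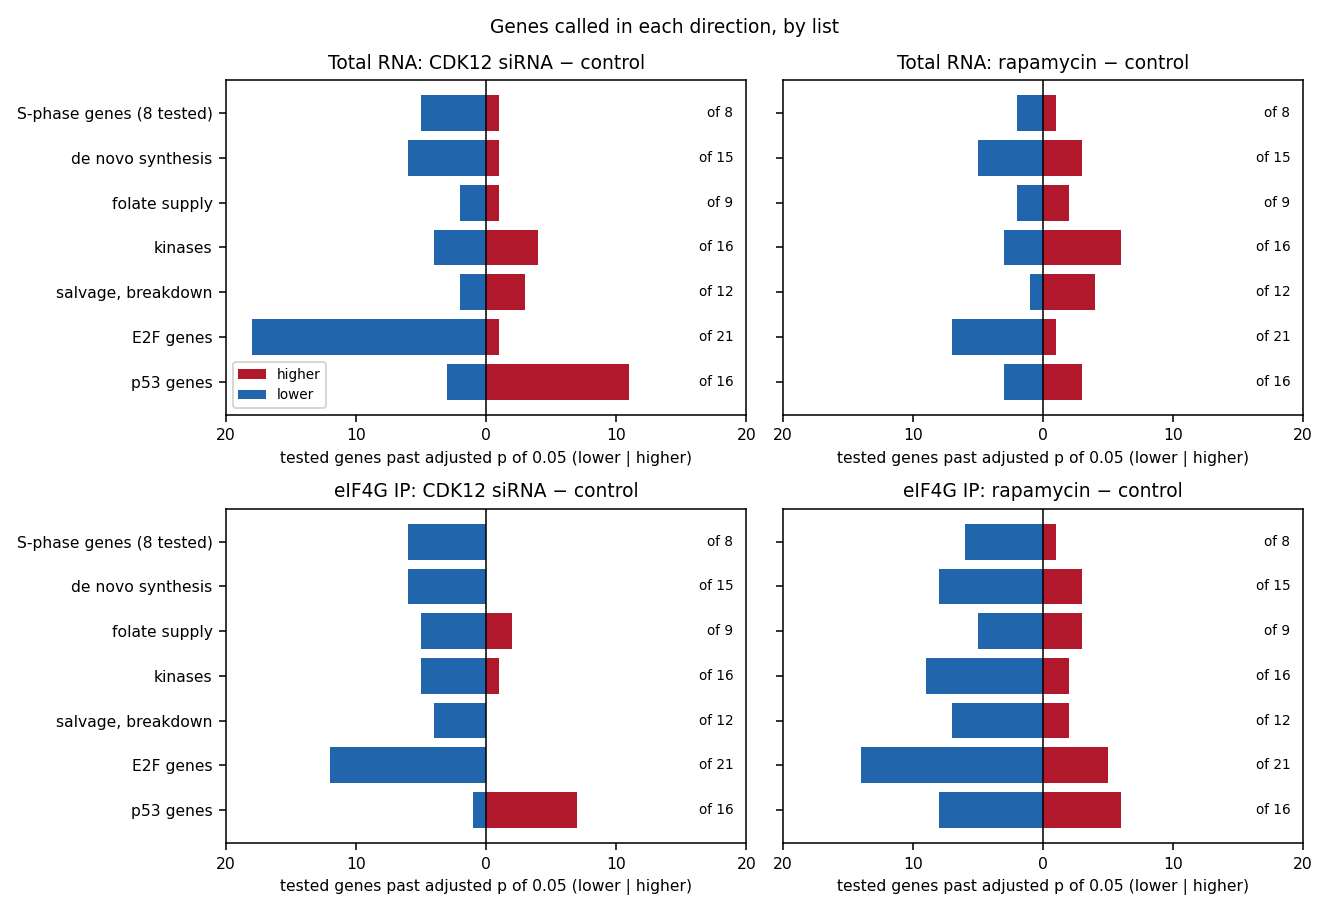
Number of tested genes past an adjusted p of 0.05 that were lower (bars to the left) or higher (bars to the right) for each list, for CDK12 siRNA (left panels) and rapamycin (right panels) against control, in total RNA (top) and in the eIF4G IP (bottom), with the number tested at the right edge. In total RNA after CDK12 siRNA 18 of 21 E2F genes lie to the left and 11 of 16 p53 genes to the right.

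Across the 13 libraries the genes differed in how closely they followed each other, given here as Pearson r of scaled log2(FPKM + 1) without a test, since the points share libraries, fractions and treatments. RRM2 and TYMS followed each other closely (r = 0.984), and RRM2 followed RRM1 (r = 0.956) and DTYMK (r = 0.939) nearly as closely. RRM2 followed DCK (r = 0.859), DUT (r = 0.741) and TK1 (r = 0.730) less, and RRM2B hardly (r = 0.172). Between TK1 and RRM2B r was -0.41. Among tested genes with a mean of at least 5 FPKM, the 3 most like RRM2 were MCM3 (r = 0.994), TUBA3C (r = 0.992) and USP1 (r = 0.991). The 3 most like TYMS were USP1 (r = 0.994), CCNA2 (r = 0.992) and CDK1 (r = 0.992), of which CCNA2 is cyclin A2 and CDK1 a kinase that cyclins activate. The 3 most like TK1 were HIST1H4I (r = 0.992), HIST1H3B (r = 0.990) and CDCA5 (r = 0.985), of which the first pair are histone genes. The 3 most like RRM2B were CITED2 (r = 0.973), LACTB (r = 0.962) and RTN4 (r = 0.960). TUBA3C and the histone genes have near-identical copies, so their counts may be split among copies.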

How the data were processed

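RNA was measured in 13 libraries, and groups and replicate numbers were taken from the sample labels. The authors deposited FPKM per gene, made with HOMER's analyzeRepeats.pl over whole gene bodies of hg19 with condensed genes, per the file headers. Per the submitters' processing notes, STAR 2.4.0k and FastQC were used with hg19. The authors' deposited table also holds log2 differences of group means of FPKM + 1 and TRUE or FALSE calls, which are given as theirs. Symbols turned into dates, 28 in all, were repaired. Every value column was assigned to a sample, group or comparison, and 0 were left unused.

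FPKM are not counts, so a count test was not used as a result. Depths of 12.9 to 30.6 (in units of 1e6 tags) were found from low values, which came out as whole reads in 100% of cases within a tolerance of 0.02 reads. Values were divided by median-ratio factors between 0.869 and 1.23, a pseudocount of 1 was added, and genes with at least 1 FPKM in at least 2 libraries (9908) were fitted with limma 3.58.1 in R 4.3.3 (lmFit, eBayes with a trend, 6 groups, no covariates, median 9.22 degrees of freedom). Benjamini-Hochberg adjustment ran separately over each of 10 contrasts. The fit was also run on simulated data with the same spread in all libraries. That setting lacks the larger spread of the IP libraries. Chi-square over its degrees of freedom was 57.6 for the CDK12 siRNA IP, 22.4 for the rapamycin IP and 9.43 to 10.7 for the control IP. In total RNA it was 3.53 to 4.59. The simulation therefore does not bear on comparisons that use the IP, and it is not used as support for any call here. The other software was Python 3.11.15 with numpy 2.4.6, pandas 2.3.3 and matplotlib 3.10.9, and the R package data.table (version 1.17.8).

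The genes, the 6 lists and the tests were chosen with earlier results of these data known. Named genes are the 9 genes in all comparisons, CDK12, genes among the 2 with the smallest p of each list in each treatment comparison, and the 3 genes most correlated with RRM2, TYMS, TK1 and RRM2B, and XPC and DDB2, named after their values were seen. Some genes that this rule picks are not reported here. Alternatives were another pseudocount (0.1 or 5), other filters, no scaling, quantile normalization, the compared groups alone, library weights, eBayes without trend, removal of a length trend, a replicate block and leaving out each library, and for SAMHD1 each of these without the filter (added after seeing the data). Samples with the same replicate number did not deviate together (r between -0.112 and 0.167).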

Additional observations from a re-analysis of the deposited data

Results flagged for a closer look

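For 13 results the treatment changed the IP and total RNA differently, as the interaction of fraction and treatment in limma. For CDK12 siRNA these were RRM2 (1.35), TK1 (0.90), TYMS (0.67), RRM1 (0.43) and RRM2B (-0.59) on the log2 scale. For rapamycin they were RRM2 (-1.37), DUT (-1.20), TYMS (-0.95), DCK (-0.86), DTYMK (-0.85), RRM1 (-0.81), RRM2B (-0.45) and, in the fit without the filter, SAMHD1 (-0.31, adjusted p = 0.0156), where 4 of 22 alternatives lost the call, with adjusted p-values up to 0.0571. Among all tested genes, 39.2% had a called interaction for CDK12 siRNA and 62.3% for rapamycin. In the fit above, RRM2, TYMS and RRM1 had interactions of opposite sign for the 2 treatments, and both interactions use the same control libraries. With quantile normalization the rapamycin interactions of RRM2 and TYMS turned positive (0.19 and 0.12). With a pseudocount of 5 the CDK12 siRNA interactions of RRM2, TYMS and RRM1 did not pass. The share of all tested genes with opposite signs was not computed. No group held enough libraries to test for an outlying one.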

How the results depend on the processing

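Of 1880 values of the 8 tested genes recomputed under the alternatives, 1727 kept their direction and their side of the threshold, 83 lost the call, 47 gained it and 23 turned. Values that turned with a call on at least one side came with quantile normalization for IP over total RNA (RRM2B -1.16 in CDK12 siRNA cells, RRM2 -0.13 and TK1 -0.0015 in rapamycin cells, RRM2 -0.32, RRM2B -0.33, TYMS -0.075 and TK1 -0.30 in control cells), with quantile normalization for the rapamycin interaction (RRM2 0.19, RRM2B 0.41, TYMS 0.12), and after removal of a length trend for TK1 in control cells (-0.13). Values that turned without a call on either side were the TK1 interaction with rapamycin (0.013 with a pseudocount of 5, 0.30 with quantile normalization, 0.34 with a length trend removed, 0.033 with the replicate block, 0.016 without replicate 2 of the rapamycin IP, within -0.15 to 0.016 over left-out libraries), rapamycin total RNA values of TYMS (0.051) and DTYMK (0.10) without scaling and of DCK (-0.0048 with quantile normalization, -0.021 without replicate 1 of rapamycin total RNA, -0.011 without replicate 1 of control total RNA, within -0.021 to 0.036 over left-out libraries), the DCK interaction with CDK12 siRNA without scaling (0.047) and DUT in the CDK12 siRNA IP without its replicate 3 (-0.16, against 0.93 without its replicate 2, the range over left-out libraries). SAMHD1 was recomputed without the filter, an alternative chosen after seeing the data: of 220 values 177 kept direction and side, 36 lost the call, 3 gained it and 4 turned, which were CDK12 siRNA over rapamycin in total RNA without scaling (-0.054) and with a length trend removed (-0.010), and the CDK12 siRNA interaction without scaling (0.075) and without replicate 3 of the CDK12 siRNA IP (0.017). The cause was not tested. Quantile normalization called 7 of the 8 genes for rapamycin in total RNA (5514 of all genes), 1 (4543) for IP over total RNA with rapamycin and 4 (5415) for the rapamycin interaction. A pseudocount of 5 left 1 (3825) for the CDK12 siRNA interaction. The compared groups alone left 3 (1015 of all genes), and library weights 3 (1105), in the CDK12 siRNA IP. Library weights gave 5 (5815) for rapamycin in total RNA, and a length trend removed left 4 (3603) for IP over total RNA with rapamycin. A mean of at least 5 FPKM tests only 4 of the genes, so its counts were lower: in total RNA 3 (732) for CDK12 siRNA, 795 of all genes for rapamycin and 4 (1274) for CDK12 siRNA over rapamycin, in the IP 2 (846) for CDK12 siRNA and 3 (1716) for rapamycin, for IP over total RNA 4 (1964), 3 (1617) and 4 (1973) in CDK12 siRNA, rapamycin and control cells, and for the interactions 3 (746) and 4 (1646) for CDK12 siRNA and rapamycin. Without a filter more genes are tested, and all genes called were 8618, 6262 and 10829 in the comparisons of total RNA, 14724 and 13940 for IP over total RNA in CDK12 siRNA and control cells, and 7073 and 9373 for the interactions.

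Leaving out 1 library at a time gave 0 to 5 of the 8 genes (1734 to 4611 of all genes) for rapamycin in total RNA, 3 to 7 (2570 to 4910) for the CDK12 siRNA interaction, 3 to 8 (2919 to 6012) for IP over total RNA with rapamycin, and 6 (2745 to 4928) for CDK12 siRNA in total RNA. With a replicate block, 6 genes in place of 7 were called for the rapamycin interaction, where RRM2B had an adjusted p of 0.0528, and SAMHD1 in the CDK12 siRNA IP had one of 0.0771, and no other call of the 9 genes was lost. With the replicate block 2931 of all genes were called in the CDK12 siRNA IP, against 3174 without it. The labels give only shared numbers, and no pairing was taken from them. Without scaling the median of all tested genes was -0.10 for CDK12 siRNA and 0.22 for rapamycin in total RNA, against 0.02 and 0.06 with it. The lowest values rest on few reads, such as 62 for TK1.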
